A study of Homo sapiens with 6 samples.

Results

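The mitochondrial carriers are the proteins that move small molecules across the inner mitochondrial membrane, and their transcripts were measured in human pluripotent stem cells (hPSCs) under normal gravity (1g) and simulated microgravity (sµg). The members are the protein-coding genes whose symbol is SLC25A followed by a number, together with MTCH1, MTCH2, UCP2, MPC1 and MPC2. This gave 53 genes, 48 of them SLC25A-numbered, of the 60719 gene rows in each library. MTCH1, MTCH2 and UCP2 belong to the same protein family as the SLC25A genes, whereas MPC1 and MPC2, which form the mitochondrial pyruvate carrier, are unrelated in sequence. The labels describe each of the 6 libraries as H1 and H9 human embryonic stem cells, both established lines, and do not say which library came from which line. The 3 1g libraries (titled Control) came from static chamber slides, and the 3 sµg libraries (titled Test) from matching slides rotated on a 2-D clinostat for 96 h. The labels name no genetic change and no drug in either arm. The study's methods describe seeding with a ROCK inhibitor before the slides were divided between the arms. On the clinostat, rotation, a chamber filled completely with medium and the changed gravity vector act together and cannot be told apart by this comparison. Whether the libraries of an arm came from separate cultures is stated nowhere. The replicate spread behind each p-value may therefore be technical.

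Carriers of the SLC25 family share a fold of repeated pairs of membrane helices and work as exchangers or symporters. The ADP/ATP carriers export ATP made by oxidative phosphorylation in exchange for ADP, the phosphate carrier brings in the phosphate for ATP synthase, and other members pass citrate, malate, amino acids, carnitine esters, nucleotides and cofactors such as coenzyme A, folate and glutathione. Pluripotent stem cells draw strongly on glycolysis while keeping working mitochondria, and they export citrate through its carrier for lipid and acetyl-CoA synthesis.

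The ADP/ATP carriers SLC25A4, SLC25A5 and SLC25A6 are close paralogs, and sequence decides whether reads can be told apart between them. Their coding sequences in GENCODE 44 on GRCh38 were each 894 bases long without the stop codon. Without gaps, SLC25A4 and SLC25A5 were identical at 77.2% of positions, SLC25A4 and SLC25A6 at 77.9%, and SLC25A5 and SLC25A6 at 78.7%. The longest run without a difference was 14 bases for SLC25A4 and SLC25A5, 20 bases for SLC25A4 and SLC25A6 and 29 bases for SLC25A5 and SLC25A6, each shorter than the study's reads. Coding bases 661 to 738, counted from the A of the start codon, lie in 1 exon in each gene and hold the codons of the signature motif of ADP/ATP carriers (bases 703 to 720). They are shown 5′ to 3′ with capitals at the 22 of 78 positions where the 3 genes are not all alike.
SLC25A4 (chr4:185145821-185145898, plus strand): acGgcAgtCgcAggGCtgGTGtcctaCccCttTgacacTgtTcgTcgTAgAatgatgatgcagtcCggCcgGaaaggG
SLC25A5 (chrX:119470435-119470512, plus strand): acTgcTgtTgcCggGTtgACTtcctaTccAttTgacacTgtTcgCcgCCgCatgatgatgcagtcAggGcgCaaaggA
SLC25A6 (chrX:1387280-1387357, minus strand): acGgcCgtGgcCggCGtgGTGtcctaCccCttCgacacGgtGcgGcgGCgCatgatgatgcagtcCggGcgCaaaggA
Of the positions that differ, 18 are at the last base of a codon.

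Libraries held between 19971097 and 28506848 expected counts, the estimated reads per gene. CPM below are TMM-scaled counts as a rate over the whole library, used to compare libraries, and TPM are the same kind of share after division by transcript length, used to compare genes. Stem cell markers were high in every library (POU5F1 at 1945 and 1971 mean CPM in 1g and sµg), with 2 of 8 lower in sµg (LIN28A and DNMT3B). The summed trophectoderm and amnion markers were 476 to 483 CPM in 1g and 394 to 415 CPM in sµg, with 7 of 8 lower (GATA3 at 10.2 and 0.373 mean CPM) and CGA at 0. Most of that sum was KRT18 (424 and 391 mean CPM, log2 fold change -0.11). GATA3, GATA2, TFAP2A, CDX2 and HAND1 had log2 fold changes of -4.75, -2.34, -2.78, -2.17 and -5.26. Of 6 mesoderm markers 2 were lower (6.70 to 8.81 CPM summed in 1g, 2.96 to 3.36 in sµg), and of 6 endoderm markers 2 were lower and 1 higher (5.82 to 8.11 CPM summed in 1g, 6.16 to 8.84 in sµg). Within the endoderm sum, GATA6 stood at 1.53 and 0.0486 mean CPM in 1g and sµg, and AFP at 3.28 and 5.63. Of 6 neural markers 4 were lower and 1 higher (541 to 561 CPM summed in 1g, 466 to 496 in sµg), and of 6 fibroblast markers 1 was lower (COL1A1) and 1 higher (THY1), with DCN and LUM under 0.1 CPM (588 to 616 CPM summed in 1g, 417 to 429 in sµg). Most of the neural sum was NES (434 and 349 mean CPM). Over all genes tested, 18.2% were lower in sµg and 15.5% higher. Genes encoded in mitochondrial DNA held 5.23 to 5.33% of counts in 1g and 4.11 to 4.76% in sµg. The part of these differences in the carrier results was not tested.

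Transcript levels differed by more than 2 orders of magnitude between carriers and little between conditions. In 1g, 6 genes averaged at least 100 TPM, 31 at least 10 TPM and 7 less than 1 TPM. SLC25A3, the phosphate carrier, stood first at 837 ± 35.3 TPM in 1g and 814 ± 9.73 TPM in sµg (mean ± SD, n = 3 each). SLC25A5 followed at 495 ± 7.87 and 502 ± 19.6 TPM. SLC25A6 was listed next at 365 ± 8.50 and 317 ± 7.45 TPM, but it lies in the pseudoautosomal region shared by the sex chromosomes, and the deposited tables divided its reads equally between the row of the X copy and the row of the Y copy. With both rows added, SLC25A6 reached 730.4 ± 17.0 TPM in 1g and 634 ± 14.9 TPM in sµg, above SLC25A5 in every library. They were followed by SLC25A39 (207 ± 2.18 TPM in 1g), MTCH1 (164 ± 2.58 TPM) and MTCH2 (139 ± 5.64 TPM). The phosphate carrier and the ADP/ATP carriers together made up 61.6 to 62.5% of all carrier TPM in 1g and 60.4 to 61.1% in sµg. All carriers summed, with the Y row included, held 0.334 to 0.344% of the TPM of a 1g library and 0.320 to 0.333% of a sµg library.

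**Figure D1:**
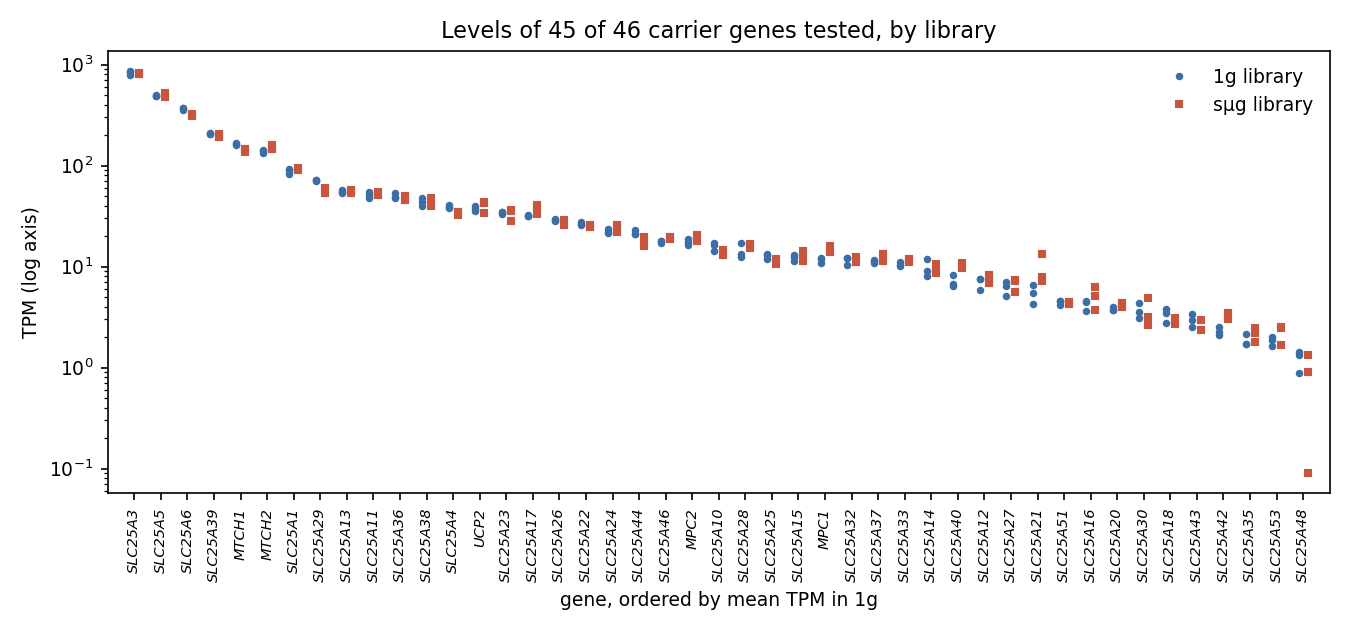
TPM of 45 of the 46 tested carriers on a log axis, with 1 point for each library (circles 1g, squares sµg) and genes ordered by their mean in 1g. Levels fall from SLC25A3, at a 1g mean of 837 TPM, to SLC25A48, at 1.22 TPM, and both conditions lie close together at most genes. SLC25A6 is shown for its X row only.

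Counts sufficed to test 46 of the 53 carriers, and 7 fell below the filter on low counts. SLC25A31, the ADP/ATP carrier of the germ line, and SLC25A47 had 0 counts in all 6 libraries. The others not tested were SLC25A2, SLC25A34, SLC25A41, SLC25A45 and SLC25A52, none above 0.745 CPM in any library. Of the carriers tested, 14 (30.4%) had an adjusted p under 0.05 in edgeR's quasi-likelihood test, beside 33.7% of all 16763 genes tested, a share near that background. In bulk RNA, fewer cells that make a transcript and less of it per cell cannot be told apart. Transcripts of 5 rose in sµg (10.9% of those tested, beside 15.5% of all genes) and those of 9 fell (19.6%, beside 18.2%). The 5 that rose were SLC25A21, SLC25A53, SLC25A40, MPC1 and SLC25A17. Those that fell were SLC25A43, SLC25A44, SLC25A29, SLC25A10, SLC25A6, SLC25A25, MTCH1, SLC25A4 and SLC25A39. The changes were small, at absolute log2 fold changes from 0.13 to 0.55. The median over the tested carriers was -0.0088 on the log2 scale (all genes 0.0057), and the median absolute change was 0.10 (all genes 0.16). The 3 sµg and 3 1g CPM values did not overlap in 19 carriers (41.3%, beside 45.5% of all genes), which included all 14 called.

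**Figure D2:**
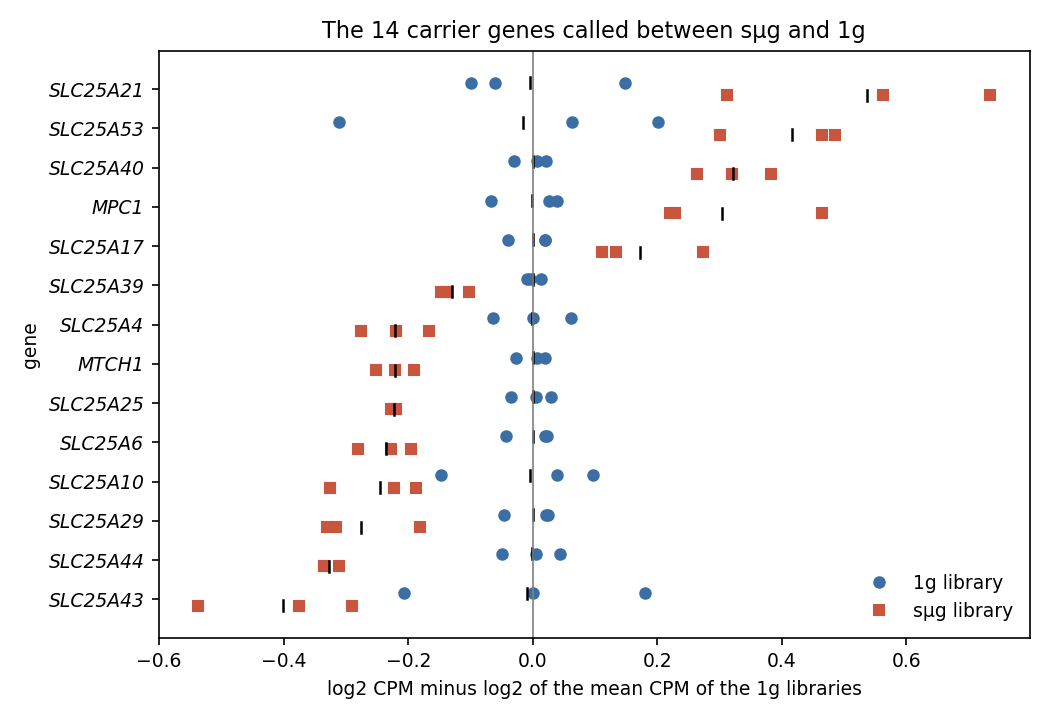
Each called carrier's CPM in every library, as log2 relative to the mean CPM of the 1g libraries (x axis), with 1g as circles, sµg as squares and a black tick at each group's mean. The squares of the 5 genes at the top lie right of all their circles and those of the other 9 lie left, with the widest scatter in SLC25A53, SLC25A43 and SLC25A21, all under 10 CPM.

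The number of calls depended more on how transcript length was treated and on the tool than on any single library. The deposited tables also give an effective length for each gene and library, the length of its transcripts weighted by their estimated use. With this length as an offset, 6 carriers were called (13.0%, beside 18.5% of all genes), of which 83.3% were lower, against 64.3% lower without it. They were SLC25A44, SLC25A6, SLC25A29, MTCH1 and SLC25A4, all lower, and SLC25A40, higher. DESeq2 called 9 (19.6%, beside 23.5%), of which 77.8% were lower. It did not call SLC25A17 (adjusted p = 0.070), MPC1 (0.18), SLC25A10 (0.11), SLC25A43 (0.18) or SLC25A53 (0.15). limma on log2(TPM + 1) called 7 (15.2%, beside 17.8%), which were MTCH1, SLC25A4, SLC25A6 and SLC25A29, all lower, and SLC25A40, MPC1 and SLC25A42, all higher. In 9 of the 14 the call held whichever 1 of the 6 libraries was left out, and the same 6 genes named above were also called by DESeq2 and in each of those fits. The number higher was 3 without 1g replicate 1 and 3 without 1g replicate 2. Those fits called 25.5% and 27.2% of all genes in either direction.

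**Figure D3:**
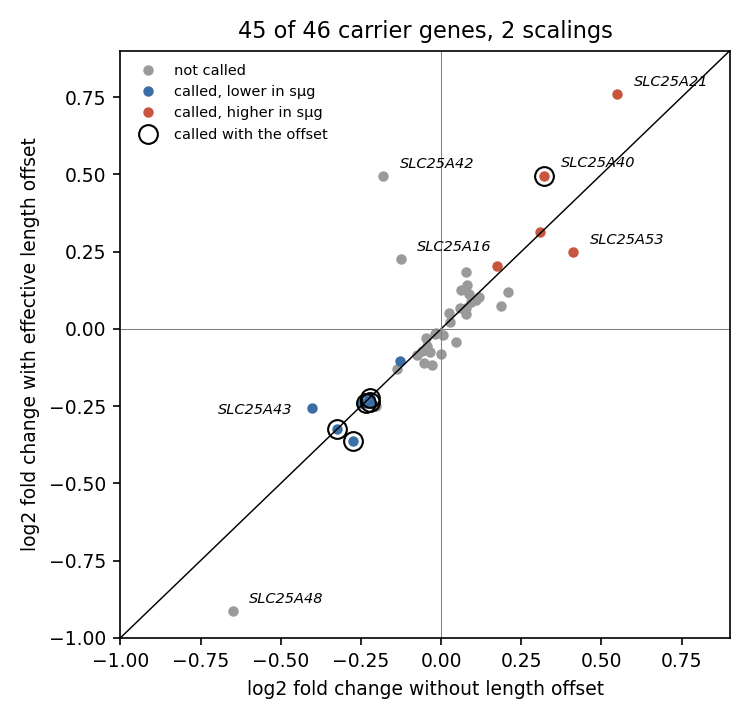
Log2 fold changes (sµg over 1g) of 45 of the 46 tested carriers without (x axis) and with (y axis) the effective length as an offset, coloured by the call without it and ringed where called with it; the line marks equal values. Most genes lie near the line, and SLC25A42 and SLC25A16 cross from below to above 0.

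Among the 8 nucleotide carriers tested, 2 ADP/ATP carriers and 1 ATP-Mg/phosphate carrier were lower in sµg, and none was higher. Over all genes, 18.2% were lower and 15.5% higher. The nucleotide carriers tested had a median log2 fold change of -0.07. SLC25A6 encodes the broadly expressed ADP/ATP carrier ANT3 (ENSG00000169100.14, chrX:1386152-1392113, minus strand), and its X row had 355, 339.5 and 356 CPM in the 1g libraries and 299, 288 and 305 CPM in the sµg libraries. All sµg libraries lay below all 1g libraries, at a log2 fold change of -0.24 ± 0.04 (SE, adjusted p = 7.4e-05). Adding the row of the Y copy left this at -0.24 ± 0.04 (adjusted p = 7.8e-05). SLC25A4, which encodes ANT1, the form prominent in heart and muscle (ENSG00000151729.11, chr4:185143266-185150382, plus strand), had 56.6, 54.2 and 59.1 CPM in the 1g libraries and 48.6, 46.8 and 50.4 CPM in the sµg libraries. It fell to a similar extent, with no overlap and a log2 fold change of -0.22 ± 0.05 (SE, adjusted p = 0.0018). SLC25A5 encodes ANT2, the form known from proliferating cells, and had 395, 387 and 393 CPM in the 1g libraries and 392, 388 and 379 CPM in the sµg libraries. Its groups overlapped and the difference was -0.02 ± 0.03 (SE, adjusted p = 0.70). On the log2(TPM + 1) scale it was 0.02, of the opposite sign. Whether SLC25A5 differed from its paralogs in response was not tested. Per length, the shares of SLC25A5 and SLC25A6 in the ADP/ATP carrier pool lay apart between conditions, which was not tested. Shares are parts of a whole, so a fall in any carrier raises the shares of the others. SLC25A5 held 38.8 to 39.5% of ADP/ATP carrier TPM in 1g and 42.0 to 43.4% in sµg. SLC25A6 with both copies held 57.5 to 58.0% and 53.8 to 54.9%. The share of SLC25A4 overlapped, at 3.00 to 3.18% and 2.82 to 3.06%. The 49 annotated pseudogene rows of all carriers together held 147 counts over the 6 libraries, and adding them to their parents changed no call.

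SLC25A25, a calcium-regulated carrier that exchanges ATP-Mg for phosphate (ENSG00000148339.12, chr9:128068201-128109245, plus strand), had 30.9, 30.4 and 29.6 CPM in the 1g libraries and 26.0, 25.9 and 26.0 CPM in the sµg libraries. The sµg libraries were close together and below 1g, at a log2 fold change of -0.22 ± 0.05 (SE, adjusted p = 0.0035), and with the length offset at -0.22 (adjusted p = 0.063). An antisense gene, SLC25A25-AS1, covers part of its exons, and the tables were made without using strand, so that reads of both genes could be mixed. The antisense row stood at 4.49 and 4.63 mean CPM in 1g and sµg. The related ATP-Mg carriers SLC25A23 (-0.08) and SLC25A24 (0.08) and the pyrimidine nucleotide carriers SLC25A33 (0.09) and SLC25A36 (-0.05) did not pass the test, with log2 fold changes as given.

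**Figure D4:**
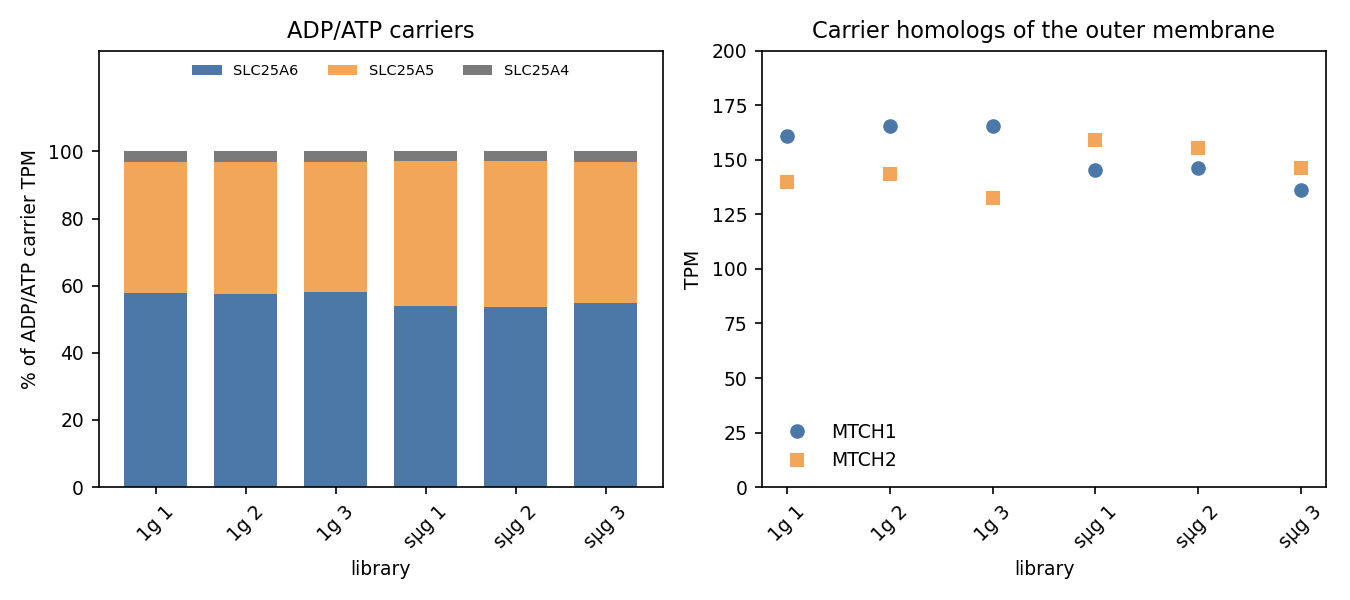
Left, the share of ADP/ATP carrier TPM held by SLC25A6 (both copies), SLC25A5 and SLC25A4 in each library, as stacked percentages; right, TPM of MTCH1 (circles) and MTCH2 (squares) in each library. The SLC25A5 segment is taller in each sµg library than in each 1g library. In TPM, MTCH1 lies above MTCH2 in the 1g libraries and below it in the sµg libraries, whereas in CPM it lies above in all.

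SLC25A3, the carrier that supplies phosphate to ATP synthase, did not pass the test. It had 567, 574 and 556 CPM in the 1g libraries and 555, 548 and 552 CPM in the sµg libraries, at a log2 fold change of -0.04 ± 0.03 (SE, adjusted p = 0.46). Its sµg values lay just below all the 1g values. SLC25A3 is known for a pair of alternative coding exons, of which the first is the form of heart and skeletal muscle and the second the form found in most tissues. They are 125 and 122 bases long, and no protein-coding transcript in GENCODE 44 holds both. Aligned from their 3′ ends without gaps they were identical at 66.4% of 122 positions. They are shown 5′ to 3′ with capitals at the bases that differ, including the 3 extra bases at the start of the first.
SLC25A3 first exon (chr12:98595433-98595557, plus strand): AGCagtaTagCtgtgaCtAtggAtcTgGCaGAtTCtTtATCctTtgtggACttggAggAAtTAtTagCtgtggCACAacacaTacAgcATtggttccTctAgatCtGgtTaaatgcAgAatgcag
SLC25A3 second exon (chr12:98595727-98595848, plus strand): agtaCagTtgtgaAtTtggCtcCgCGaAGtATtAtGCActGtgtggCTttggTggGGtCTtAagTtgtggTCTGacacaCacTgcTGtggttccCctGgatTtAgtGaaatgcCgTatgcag
The 3 transcripts with the first exon in their coding sequence summed to 1.41 to 4.14 TPM in the 1g libraries and 1.39 to 3.55 TPM in the sµg libraries. The 6 with the second exon summed to 661 to 734 and 666 to 702 TPM, or 82.8 to 84.6% and 82.3 to 85.1% of the gene. In every library the transcripts with the second exon far exceeded those with the first, and for both exons the ranges of the conditions overlapped.

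None of the 4 carriers grouped as uncoupling proteins passed edgeR's test, beside 33.7% of all genes that did. Of these carriers, 0 had an unadjusted p under 0.05 and DESeq2 called 0. UCP2, an uncoupling protein that also exports carboxylates, had 36.6, 40.0 and 41.1 CPM in the 1g libraries and 43.3, 40.1 and 36.1 CPM in the sµg libraries. The groups overlapped fully, at a log2 fold change of 0.03 ± 0.06 (SE, adjusted p = 0.80). SLC25A14, SLC25A27 and SLC25A30 lay at log2 fold changes of 0.05, 0.11 and -0.0010.

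Of the 6 carboxylate carriers, 2 rose and 1 fell (median log2 fold change 0.04), beside 15.5% and 18.2% of all genes. SLC25A21, the carrier of oxoadipate and related dicarboxylates from lysine and tryptophan breakdown (ENSG00000183032.12, chr14:36677921-37172606, minus strand), had 5.44, 6.29 and 5.30 CPM in the 1g libraries and 7.05, 8.38 and 9.45 CPM in the sµg libraries. Every sµg library exceeded every 1g library, at a log2 fold change of 0.55 ± 0.12 (SE, adjusted p = 0.0018), and the length offset gave 0.76 (adjusted p = 0.061). Its exons overlap those of the antisense gene SLC25A21-AS1, at 2.16 and 2.14 mean CPM. MPC1, a subunit of the mitochondrial pyruvate carrier (ENSG00000060762.19, chr6:166364919-166383013, minus strand), had 6.35, 6.40 and 5.95 CPM in the 1g libraries and 7.26, 7.30 and 8.60 CPM in the sµg libraries. It was higher in sµg at a log2 fold change of 0.31 ± 0.11 (SE, adjusted p = 0.035), but the adjusted p was 0.076 without 1g replicate 1, 0.062 without 1g replicate 2, 0.11 without 1g replicate 3 and 0.14 without sµg replicate 3, and 0.13 with the length offset. MPC2, its obligate partner, had 24.1, 23.8 and 25.1 CPM in the 1g libraries and 25.6, 25.0 and 25.4 CPM in the sµg libraries. It stood at a log2 fold change of 0.06 ± 0.06 (SE, adjusted p = 0.46), with 1 sµg value inside the 1g range.

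SLC25A10, the dicarboxylate carrier that exchanges malate or succinate for phosphate (ENSG00000183048.12, chr17:81712236-81721016, plus strand), had 20.5, 17.3 and 19.7 CPM in the 1g libraries and 16.4, 16.8 and 15.3 CPM in the sµg libraries. It was lower in sµg at a log2 fold change of -0.25 ± 0.08 (SE, adjusted p = 0.017), with an adjusted p of 0.12 without 1g replicate 1 and 0.069 without 1g replicate 3, and 0.12 with the length offset. The citrate carrier SLC25A1 and the oxoglutarate/malate carrier SLC25A11, at 88.5 ± 5.55 and 51.6 ± 3.55 TPM in 1g, had log2 fold changes of 0.03 and 0.0057 and were not called. SLC25A20, which carries acylcarnitines in for fatty acid oxidation, had 4.36, 4.27 and 4.41 CPM in the 1g libraries and 5.00, 5.17 and 4.91 CPM in the sµg libraries. All its sµg values lay above its 1g values, yet the test was not passed (0.21 ± 0.12 SE, adjusted p = 0.21).

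Of the 8 amino acid carriers tested, SLC25A44 and SLC25A29 fell and none rose (group median -0.04), beside 18.2% and 15.5% of all genes. SLC25A44, a carrier of branched-chain amino acids (ENSG00000160785.13, chr1:156193932-156212796, plus strand), had 52.0, 54.0 and 55.4 CPM in the 1g libraries and 42.6, 42.6 and 43.3 CPM in the sµg libraries. The 3 sµg values lay within 1 CPM of each other and below all the 1g values, at a log2 fold change of -0.33 ± 0.05 (SE, adjusted p = 2.8e-05), the smallest adjusted p among the carriers. limma did not call it, at -0.28 (adjusted p = 0.056) on log2(TPM + 1) and -0.29 (adjusted p = 0.055) on log2(TPM + 0.1). SLC25A29, which carries arginine, lysine and ornithine (ENSG00000197119.13, chr14:100291116-100306547, minus strand), had 133, 127 and 133 CPM in the 1g libraries and 104, 105 and 116 CPM in the sµg libraries. This was a fall with no overlap, at a log2 fold change of -0.27 ± 0.04 (SE, adjusted p = 8.3e-05), and it was -0.36 (adjusted p = 0.0014) with the length offset. The unnamed antisense gene ENSG00000258504 shares exon bases with SLC25A29 and stood at 5.84 and 5.18 mean CPM. The aspartate/glutamate carriers SLC25A12 (0.19) and SLC25A13 (-0.02), the glutamate carriers SLC25A18 (-0.20) and SLC25A22 (-0.03), the ornithine carrier SLC25A15 (0.08) and the glycine carrier SLC25A38 (-0.04) were not called, with log2 fold changes in brackets.

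Cofactor carriers moved in both directions, with 2 of 9 tested higher and 1 lower, beside 15.5% and 18.2% of all genes. The paralogs SLC25A39 and SLC25A40 both take glutathione into mitochondria and had opposite signs. SLC25A40 (ENSG00000075303.13, chr7:87833568-87876360, minus strand) had 13.6, 13.1 and 13.5 CPM in the 1g libraries and 16.1, 16.7 and 17.5 CPM in the sµg libraries, with all sµg libraries higher, at a log2 fold change of 0.32 ± 0.07 (SE, adjusted p = 0.0022). SLC25A39 (ENSG00000013306.16, chr17:44319625-44324870, minus strand) had 215, 212 and 213 CPM in the 1g libraries and 194, 193 and 199 CPM in the sµg libraries, with all sµg libraries lower, at a log2 fold change of -0.13 ± 0.03 (SE, adjusted p = 0.0074). The difference between the paralogs was not tested, and SLC25A39 missed the threshold with the length offset at -0.10 (adjusted p = 0.089). Per length, SLC25A39 was the far more abundant of the pair, at 207 ± 2.18 TPM in 1g against 7.09 ± 0.999 TPM for SLC25A40. SLC25A40 shares 145 exon bases with DBF4 on the opposite strand, a cell cycle kinase subunit that also rose, at 73.8 and 90.7 mean CPM (log2 fold change 0.30, adjusted p = 1.1e-05). Its part in the SLC25A40 value was not tested.

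SLC25A17, a peroxisomal carrier of coenzyme A, FAD and NAD+ (ENSG00000100372.15, chr22:40769630-40819399, minus strand), had 39.1, 37.5 and 39.1 CPM in the 1g libraries and 41.7, 42.3 and 46.6 CPM in the sµg libraries. It rose slightly, at a log2 fold change of 0.17 ± 0.05 (SE, adjusted p = 0.018), and sµg replicate 3 was the highest library. The adjusted p was 0.075 without 1g replicate 2 and 0.051 without sµg replicate 3, and 0.13 with the length offset. The S-adenosylmethionine carrier SLC25A26 (-0.14), the folate carrier SLC25A32 (-0.05), the NAD+ carrier SLC25A51 (-0.06) and the coenzyme A carriers SLC25A16 (-0.13) and SLC25A42 (-0.18) were not called. For SLC25A26 all sµg values lay below the 1g values (adjusted p = 0.066). It shares 2669 exon bases with LRIG1 on the opposite strand, which fell (log2 fold change -0.32, adjusted p = 1.8e-06). SLC25A32 shares 406 with DCAF13, also on the opposite strand, which rose (0.18, adjusted p = 9.1e-04). The part of LRIG1 and DCAF13 in these values was not tested. The sign of SLC25A42 depended on the length used: the log2 fold change was -0.18 from counts and 0.50 (adjusted p = 0.068) with the offset. limma called it higher in sµg, at 0.39 (adjusted p = 0.038) on log2(TPM + 1) and 0.515 (adjusted p = 0.045) on log2(TPM + 0.1). Its mean effective length fell from 2209 bases in 1g to 1368 in sµg, while the retained-intron transcript SLC25A42-205 went from 10.3% to 40.2% of the gene's TPM. SLC25A16 likewise turned from -0.13 to 0.23 (adjusted p = 0.48). The iron importers SLC25A28 (0.08) and SLC25A37 (0.06), the mitoferrins, were not called.

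The 3 members that sit in the outer membrane gave 1 call, beside 33.7% of all genes called. MTCH1 (ENSG00000137409.19, chr6:36965807-36986298, minus strand), a homolog of the outer membrane insertase MTCH2, had 215, 222 and 220.0 CPM in the 1g libraries and 188, 192 and 184 CPM in the sµg libraries. It fell at a log2 fold change of -0.22 ± 0.04 (SE, adjusted p = 9.2e-05), and the groups were well apart. MTCH2, which inserts proteins into the outer membrane, had 91.2, 87.8 and 86.3 CPM in the 1g libraries and 95.2, 94.4 and 92.6 CPM in the sµg libraries. All sµg values lay above all 1g values, but the test was not passed (0.09 ± 0.04 SE, adjusted p = 0.099). Without sµg replicate 3 it was passed (adjusted p = 0.029). On the TPM scale, the ratio of MTCH1 to MTCH2 was 1.15 to 1.25 in 1g and 0.913 to 0.943 in sµg, on either side of equality. In CPM, MTCH1 exceeded MTCH2 in every library, so the crossing appears only after division by length. Mean effective lengths in 1g were 1727 bases for MTCH1 and 826 for MTCH2. MTCH2-202, MTCH2-204 and MTCH2-205, without a defined coding sequence or with a retained intron, held 10.3, 18.1 and 17.1% of MTCH2 TPM in 1g. SLC25A46, an outer membrane protein of mitochondrial dynamics, stood at 0.12 (adjusted p = 0.078), with its groups also apart.

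Among the carriers grouped without a substrate, 4 of 7 could be tested and 2 were called (beside 33.7% of all genes), both at few counts. SLC25A53 (ENSG00000269743.3, chrX:104099214-104157009, minus strand) had 4.15, 3.20 and 4.57 CPM in the 1g libraries and 5.48, 5.56 and 4.89 CPM in the sµg libraries. It was higher in sµg at a log2 fold change of 0.41 ± 0.14 (SE, adjusted p = 0.032), and the adjusted p was 0.07 without 1g replicate 1, 0.15 without 1g replicate 2, 0.086 without sµg replicate 1 and 0.096 without sµg replicate 2. SLC25A43 (ENSG00000077713.19, chrX:119399336-119454478, plus strand) had 5.99, 5.29 and 4.58 CPM in the 1g libraries and 4.33, 4.07 and 3.64 CPM in the sµg libraries. It was lower at a log2 fold change of -0.40 ± 0.14 (SE, adjusted p = 0.03), and the adjusted p was 0.19 without 1g replicate 1, 0.072 without 1g replicate 2, 0.067 without sµg replicate 2 and 0.084 without sµg replicate 3. With the length offset neither was called (adjusted p = 0.40 and 0.34). SLC25A35 (0.08) and SLC25A48 (-0.65) were not called, and SLC25A48 had from 0.149 to 1.23 CPM over the 6 libraries.

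**Figure D5:**
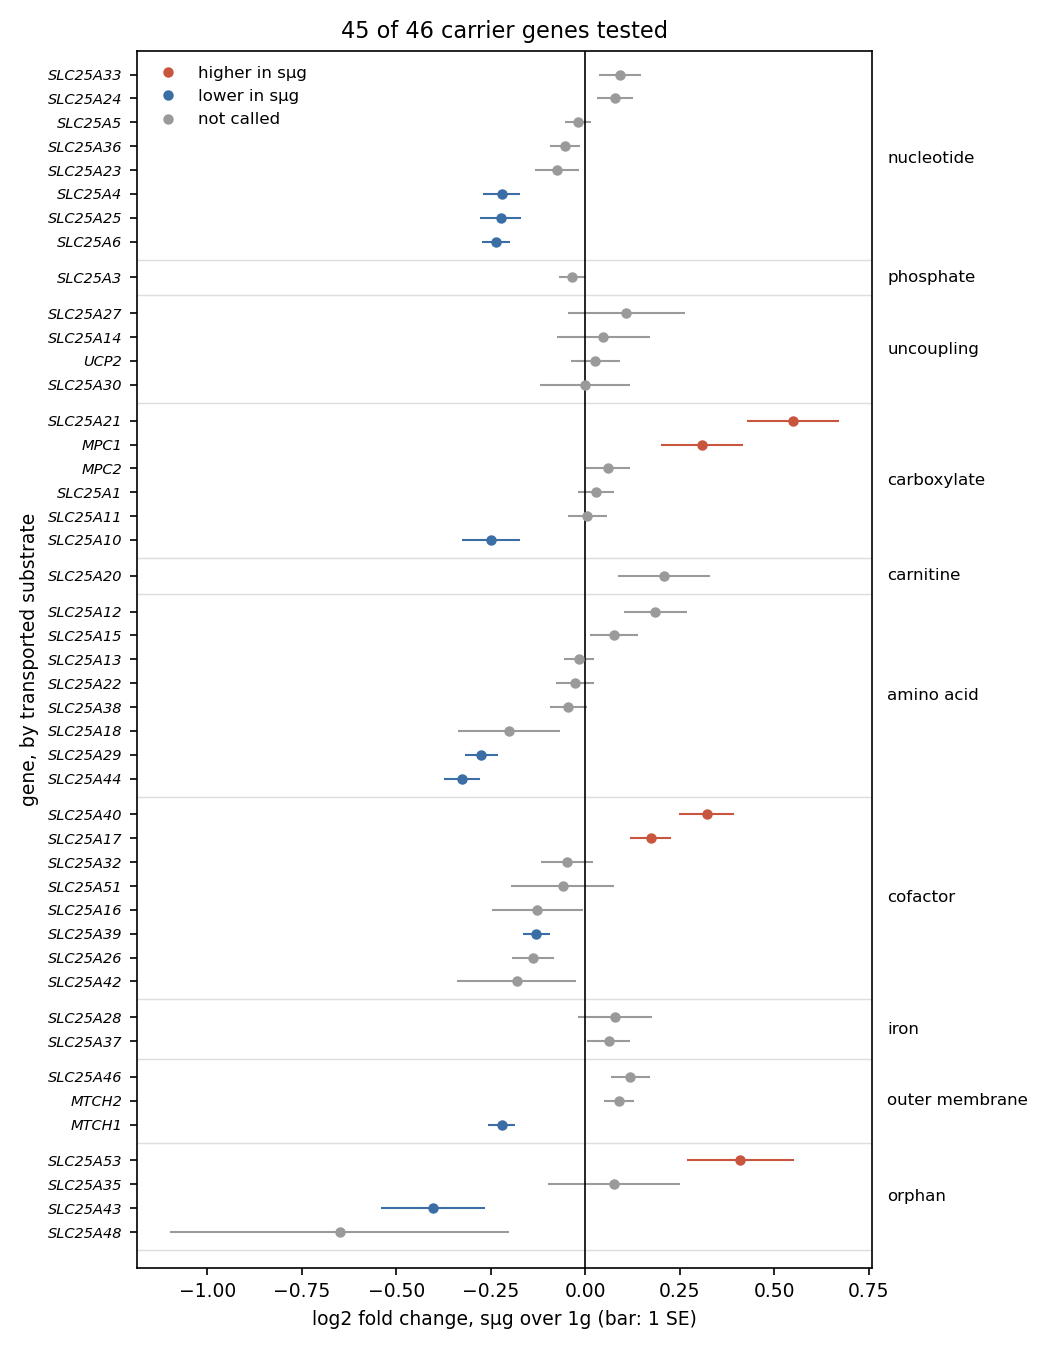
Log2 fold change (sµg over 1g) of 45 of the 46 tested carriers with 1 SE to either side, grouped by what the carrier transports or where it sits. Genes called higher are red, called lower blue and not called grey. Nucleotide and amino acid carriers hold blue calls only (3 of 8 and 2 of 8 tested), and the cofactor and carboxylate groups hold both colours. Of all genes, 18.2% were lower and 15.5% higher, the groups are small, and no difference between groups was tested. The widest bar belongs to SLC25A48.

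At the level of transcripts, the tables held 412 transcripts of the carriers, of which 158 were tested and 2 called (1.27%, beside 1.76% of all transcripts tested). An unadjusted p under 0.05 was reached by 19. The share of all transcripts at that p is not given, so this count and those like it below stand without a background. SLC25A44-201, the main coding transcript with 83.0% of the gene's TPM in 1g, had 18.1, 17.8 and 18.2 TPM in the 1g libraries and 14.6, 15.0 and 15.0 TPM in the sµg libraries. It was lower in every sµg library, at a log2 fold change of -0.32 ± 0.05 (SE, adjusted p = 0.036 over all transcripts). SLC25A6-201, with 98.9% of its gene's TPM in 1g, had 367, 351 and 365 TPM in the 1g libraries and 321, 308 and 312 TPM in the sµg libraries. This was again a fall with no overlap, at a log2 fold change of -0.25 ± 0.03 (SE, adjusted p = 0.033 over all transcripts). Leaving out sµg replicate 3 left 1 call, with 568 calls over all transcripts in place of 948. Leaving out any other library left 0 in edgeR (15 to 19 at an unadjusted p under 0.05), with 113 to 201 over all transcripts. DESeq2 on all libraries called 11, beside 3802 of all 83014 transcripts it tested. The fit with replicate number as a block and limma on log2(TPM + 1) each called 0 (18 and 22 at an unadjusted p under 0.05). Over all transcripts they called 10 and 697. For SLC25A4, RSEM assigned 84.9% of the gene's TPM in 1g and 84.9% in sµg to SLC25A4-202, which is annotated as a target of nonsense-mediated decay, and the rest to the coding transcript SLC25A4-201. Both transcripts had a log2 fold change of -0.23, and neither passed the test. How RSEM divides reads between transcripts that share most of their sequence is uncertain and is not in these errors.

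Carrier precursors are brought into the inner membrane by their own import route. Of the TOM complex, small TIM chaperones and TIM22 complex, 4 of 16 tested genes rose and 1 fell (31.2% called, median log2 fold change 0.04, beside 33.7% and 0.0057 over all genes). TIMM8B, a small chaperone of the intermembrane space, was at 52.2 ± 2.10 CPM in 1g and 63.8 ± 5.02 CPM in sµg (n = 3 each, mean ± SD), a log2 fold change of 0.29 (adjusted p = 4.5e-04). TOMM6 (0.22, adjusted p = 9.5e-04) and TOMM5 (0.18, adjusted p = 0.0056), small subunits of the outer membrane pore, and the chaperone TIMM10 (0.19, adjusted p = 0.015) rose as well. The gene that fell was the receptor TOMM20. The count was 3 without 1g replicate 1, 3 without 1g replicate 3 and 3 with the length offset. Those fits called 25.5%, 26.5% and 18.5% of all genes, in place of 33.7%.

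Of other mitochondrial membrane transporters and channels, 8 of 22 tested genes rose and 4 fell (54.5% called, median log2 fold change 0.08, beside 33.7% and 0.0057 over all genes). SFXN3, a sideroflexin of the family that carries serine, had the largest change of this list, at 9.24 ± 0.722 CPM in 1g and 1.61 ± 0.399 CPM in sµg (n = 3 each, mean ± SD) and a log2 fold change of -2.51 ± 0.15 (SE, adjusted p = 5.2e-10). SFXN5, of the same family, went the other way at 26.1 ± 0.766 CPM in 1g and 39.1 ± 0.623 CPM in sµg (n = 3 each, mean ± SD) and a log2 fold change of 0.59 ± 0.05 (SE, adjusted p = 9.0e-08). VDAC2, a pore of the outer membrane, fell by 0.17 on the log2 scale (adjusted p = 8.8e-04), and the serine carrier SFXN1 rose by 0.19 (adjusted p = 0.0014). Without 1g replicate 1 the list had 7 calls in place of 12, while the share of all genes called went from 33.7% to 25.5%.

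Of the enzymes that make or use carrier substrates, 7 of 36 tested genes rose and 9 fell (44.4% called, median log2 fold change -0.05, beside 33.7% and 0.0057 over all genes), with PDK4 below the filter. CPT1A, which makes the acylcarnitines that SLC25A20 carries, was at 15.1 ± 0.990 CPM in 1g and 5.28 ± 0.0836 CPM in sµg (n = 3 each, mean ± SD), a log2 fold change of -1.51 ± 0.09 (SE, adjusted p = 6.0e-10). CRAT, the carnitine acetyltransferase, was at 10.8 ± 0.545 CPM in 1g and 7.01 ± 0.471 CPM in sµg (n = 3 each, mean ± SD), a log2 fold change of -0.62 ± 0.10 (SE, adjusted p = 6.0e-05). Both fell, whereas SLC25A20 did not pass the test, and the difference between enzymes and carrier was not tested. GPD2 of the glycerol phosphate shuttle (0.31, adjusted p = 2.5e-04) and the malic enzyme ME1 (0.53, adjusted p = 7.8e-04) rose. The list had 10 calls without 1g replicate 3 in place of 16, and 8 with the length offset. Those fits called 26.5% and 18.5% of all genes, in place of 33.7%. None of these lists shares a gene with the carriers.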

How the data were processed

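RNA from 6 libraries, 3 for each condition, was sequenced by the authors after a stranded TruSeq mRNA preparation. Per the labels, reads were mapped to GRCh38.p13 with STAR 2.7.7a and quantified with RSEM 1.3.3. The study's methods describe more than one STAR setting, and which one made these tables is not stated. RSEM was run without using strand. The deposited tables hold expected counts (estimated, not always whole), TPM and effective lengths for 60719 genes and 232184 transcripts.

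Symbols, coordinates and exons came from GENCODE 44, matched on Ensembl IDs without their version. Apart from 44 rows of Y copies, 256 gene rows had no match. Expected counts were rounded, filtered with filterByExpr (minimum count 10, minimum total 15) and TMM scaled, and all genes tested were fitted with edgeR 4.0.16 (robust quasi-likelihood test, two-sided, Benjamini-Hochberg adjustment over all genes, threshold 0.05). Transcripts were fitted the same way. DESeq2 1.42.0 and limma 3.58.1 on log2(TPM + 1) and log2(TPM + 0.1) served as alternatives, and the others tried are given in the closing section. A fold change on the log2(TPM + 1) scale understates the change of low genes. The gene tests of edgeR, DESeq2 and limma (there on CPM) were run on simulated gene counts with known changes and a fixed dispersion. The transcript fits, the length offset, the replicate block and the leave-one-out fits were not checked in this way. R 4.3.3 was used.

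Named with values in every library were the carriers called, the ADP/ATP carriers, MTCH1, MTCH2, UCP2, MPC1 and MPC2. In each pathway list the 4 genes with the smallest adjusted p were named, and of transcripts those called with at least 10% of their gene's TPM. SLC25A3, SLC25A16, SLC25A20, SLC25A42 and other carriers or transcripts given in more detail were chosen after their values were seen. The carriers, the pathway lists (carrier import, other transporters, partner enzymes) and the marker lists (stem cell, trophectoderm and amnion, mesoderm, endoderm, neural, fibroblast) were chosen with earlier results of these data known. For 1 tested carrier, counted in the totals, values are not reported here.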

Additional observations from a re-analysis of the deposited data

How the results depend on the processing

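Scaling by RLE in place of TMM, requiring at least 10 counts in every library, adding Y copies to X copies and adding pseudogenes to their parents each left 14 carriers called, and no filter on low counts left 13. Of all genes, the fits with 14 called 33.7 to 35.9%, and the fit without the filter 18.8%. The study's methods call the control samples matched, without saying which library matches which. Deviations of same-numbered libraries were nearly uncorrelated (-0.025, 0.037 and -0.010). That check cannot exclude matching in another order or a weak shared effect. A fit with the replicate block also called 14 carriers, 5 higher and 9 lower (33.9% of all genes called). It called 0 transcripts of carriers (edgeR, 19 at an unadjusted p under 0.05 without the block and 18 with it). With the effective length offset 6 carriers were called (1 higher, 5 lower), with 3 import genes, 7 other transporters and 8 partner enzymes. DESeq2 called 9 carriers (2 higher), 7 other transporters and 11 transcripts of carriers. limma on log2(TPM + 1) and on log2(TPM + 0.1) each called 7 carriers (3 higher, 4 lower), 6 other transporters and 7 partner enzymes, and on log2(TPM + 1) limma called 0 transcripts (22 at an unadjusted p under 0.05). At an adjusted p under 0.01, 9 carriers (2 higher), 3 import genes, 7 other transporters and 9 partner enzymes were called. The share of all genes at that threshold is not given, so these counts stand without a background. Without the filter 1 transcript was called, beside 725 of all 136364 tested. The share of all transcripts at an unadjusted p under 0.05 is not given, so the transcript counts at that p stand without a background. Leaving out 1 library at a time gave 10 to 15 carriers (3 to 7 higher, 7 to 9 lower), 3 to 6 import genes, 7 to 11 other transporters, 10 to 18 partner enzymes and 0 to 1 transcripts. Those gene fits called 25.5 to 36.3% of all genes, lowest without 1g replicate 1 and highest without sµg replicate 3. SLC25A42 turned from -0.18 to 0.495 with the length offset (not called), and limma called it higher, at 0.39 on log2(TPM + 1) and 0.515 on log2(TPM + 0.1). The other turns of sign were not called. In the order offset, log2(TPM + 1) and log2(TPM + 0.1), they were 0.226, 0.204 and 0.239 for SLC25A16 and -0.044, -0.002 and -0.001 for SLC25A14. SLC25A11 gave -0.021 with the offset. On both TPM scales SLC25A13 gave 0.023 and SLC25A5 gave 0.019, and SLC25A32 gave 0.01 and 0.011. SLC25A30 gave 0.003 with DESeq2 and 0.0007 with RLE. Leaving out 1 library gave ranges across 0 for SLC25A13 (-0.038 to 0.015), SLC25A1 (-0.02 to 0.066), SLC25A14 (-0.016 to 0.17), SLC25A11 (-0.036 to 0.031), SLC25A35 (-0.025 to 0.2), SLC25A23 (-0.122 to 0.004), SLC25A27 (-0.036 to 0.188), SLC25A28 (-0.00017 to 0.134), SLC25A30 (-0.089 to 0.094), UCP2 (-0.038 to 0.098) and SLC25A22 (-0.058 to 0.01). Of the carriers called, limma on either scale lost SLC25A44, SLC25A39, SLC25A43, SLC25A17, SLC25A25, SLC25A21, SLC25A10 and SLC25A53. For 45 tested carriers, the 12 genes named from the pathway lists and the 2 transcripts called, 909 values were computed under alternatives, of which 800 kept their direction and side of the threshold, 70 lost the call, 5 gained it in the same direction and 34 changed sign. Leave-one-out fits have fewer samples, and a stricter threshold can only remove calls. Apart from that threshold, the cause of these changes was not tested, also for the leave-one-out fits. Across all genes, 5648 calls with edgeR became 3873 with DESeq2, 3106 with the length offset, 2979 and 2915 with limma, and 948 transcript calls became 10 with the replicate block and 3802 with DESeq2. With 3 libraries per condition, the smallest log2 change called among carriers was -0.13 (SLC25A39), and among those under 10 CPM it was 0.31 (MPC1).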
